A study of Mus musculus with 7 samples.

Results

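Cohesin is a ring-shaped protein complex, and Smc1 is one of its core subunits. Cohesin holds sister chromatids together and folds interphase chromatin by drawing DNA into loops. CTCF is a zinc-finger protein that binds a fixed sequence motif, and most strong cohesin peaks in mammalian cells lie on CTCF sites, where the moving complex tends to stop. A smaller part of cohesin is found away from CTCF, in several cell types at active enhancers and promoters that also carry the cohesin loader Nipbl and the Mediator complex. The sites described here are those cohesin peaks of neural progenitor cells (NPCs) that had no CTCF peak in their surroundings.

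A far Smc1 peak was a Smc1 peak on chromosomes 1 to 19 whose edge lay more than 10 kb from the edge of the nearest CTCF peak. There were 4935 such peaks among 37113 autosomal Smc1 peaks, or 13.3% (95% Wilson interval 12.96% to 13.65%). Of the remaining peaks, 28439 overlapped a CTCF peak by at least 1 base (76.6%), and 3739 did not overlap but lay within 10 kb of one (10.1%). The last 2 classes are called overlapping and near peaks below. Intervals on shares, medians and densities cover counting error only. They treat peaks as independent, which neighbouring peaks are not.

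Smc1 and CTCF were mapped by ChIP-seq, in which chromatin fragments bound by an antibody are sequenced, with 1 library for each antibody. An input DNA sample of the same cells is listed as well but was not analysed here. The NPCs came from V6.5 mouse embryonic stem (ES) cells, a male line of 129SvJae x C57BL/6 background. They were made through embryoid bodies grown without LIF for 4 days, selection in ITSFn medium for 5 to 7 days and propagation with Fgf2 for 2 to 4 days, and were fixed in 1% formaldehyde. The series also holds chromosome conformation libraries of ES cells and NPCs, which were not used here because their table gives no chromosome coordinates. With 1 library for each antibody no difference could be tested against replicate error, so all comparisons between peak classes are descriptions of these libraries. Peak lists hold no RNA or marker levels, and the cell type was not checked against its markers.

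Far Smc1 peaks were weaker than cohesin on CTCF. The deposited score was taken to rise as the peak caller's p-value falls. Its median was 112 in far peaks (interval 111 to 114) and 321 in overlapping peaks (316 to 327). Near peaks had a median of 114, close to that of far peaks. The lowest score in the list was 80, and 34.9% of far peaks lay between 80 and 100, against 32.9% of near and 6.99% of overlapping peaks. Scores over 400 were reached by 76 far peaks (1.54%) and by 11863 overlapping peaks (41.7%).

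The share of far peaks therefore depended on peak strength. Among all autosomal Smc1 peaks with scores from 80 to 100, 34.9% were far from CTCF. From 100 to 200 the share was 22.1%, from 200 to 400 it was 6.19%, and from 400 to 800 it was 0.923%. Of 4421 Smc1 peaks with scores of 800 or more, 6 were far from CTCF, a share of 0.136% (95% Wilson interval 0.0622% to 0.296%). This fall was not particular to far peaks. Near peaks made up 24.9% of Smc1 peaks with scores from 80 to 100, 17.3% from 100 to 200 and 4.81% from 200 to 400. Their share was 0.831% from 400 to 800 and 0.0226% at 800 or more.

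Far peaks had a median width of 388 bp (interval 384 to 392), with 80% of them between 267 and 587 bp. This was narrower than near peaks (407 bp) and overlapping peaks (416 bp). The order turned once peaks of like score were compared. Between scores of 80 and 100, the median width was 327 bp in far and 306 bp in overlapping peaks. Between 100 and 200, it was 407 and 346 bp. Between 200 and 400, it was 556 bp in far peaks (interval 539 to 576) and 408 bp in overlapping peaks (404 to 411). Over 400, it was 866 bp (705 to 969) and 483 bp (480 to 485), although only 76 far peaks reached that range. At every score range, far and near peaks were broader than peaks on CTCF. Between far and near peaks the medians differed by 10 to 23 bp below a score of 400, with near peaks the wider.

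**Figure D1:**
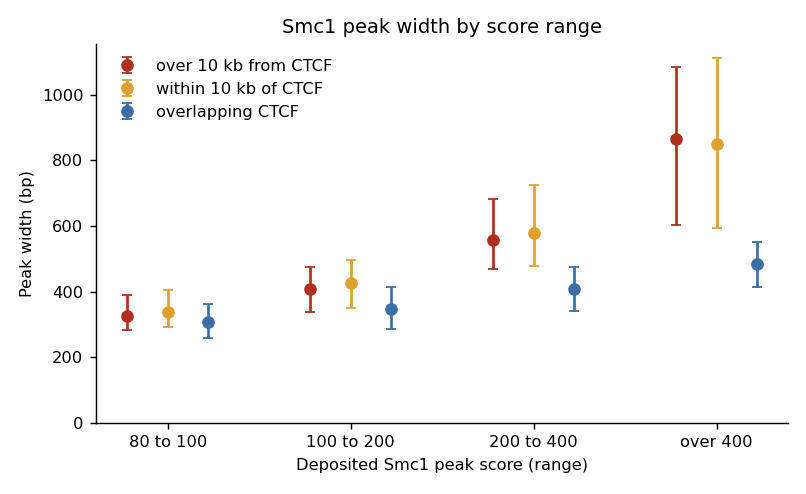
Width of Smc1 peaks (bp, vertical axis) in 4 ranges of the deposited score (horizontal axis) for far, near and overlapping peaks. Points are medians and bars span the 25th to 75th percentile. Over a score of 400 the far median is 866 bp and the overlapping median 483 bp, while from 80 to 100 the medians are 327 and 306 bp.

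Wide peaks of 1 kb or more were rare, at 55 far peaks (1.11%), 47 near peaks (1.26%) and 226 overlapping peaks (0.795%). The widest far peak covered 2044 bp at chr3:51905407-51907450 (mm9) with a score of 812.67. The next were 1875 bp at chr11:86393362-86395236, 1760 bp at chr13:5869596-5871355, 1572 bp at chr7:119822211-119823782 and 1500 bp at chr12:78339374-78340873. Each of these 5 had another far peak within 531 bp. Whether such neighbours are separate sites or parts of a broader stretch was not tested, since no read signal was used here. When far peaks no more than 1 kb apart were joined, 4741 remained, of which 182 (3.84%) were 1 kb or wider. The broadest joined stretch was 4091 bp at chr3:51905407-51909497. It was followed by 3421 bp at chr8:26628996-26632416 and 3328 bp at chr10:98724083-98727410. Joined widths of near and overlapping peaks were not compared here. Another peak of the same class lay within 1 kb of 7.48% of far, 9.95% of near and 8.56% of overlapping peaks. The classes occupy different stretches of sequence, so these shares are not on equal terms.

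The strongest far peak had a score of 1502.54 and a width of 705 bp at chr11:107645335-107646039, 20.5 kb from CTCF. Second was chr3:21834319-21835400 with 1403.33, a peak 173 kb from CTCF. The next was chr13:5869596-5871355 with 1289.3, which belonged to the cluster with most far peaks. The peaks at chr13:91510341-91511249 (1111.17) and chr8:14072437-14072965 (869.54) had no other far peak within 12500 bp. Ranks 6 to 10 had scores from 712 to 813 and lay 20.3 to 78.4 kb from CTCF. Strong far peaks had close companions more often than weak ones. Another Smc1 peak of any class lay within 1 kb of 27.6% of far peaks with scores of 400 or more (21 of 76, interval 18.8% to 38.6%), 14.3% of those from 200 to 400 and 6.49% of those below 200. Near peaks also showed a rise with score, with 51.6%, 36.9% and 25.8%. In overlapping peaks these shares were 11.8%, 11.2% and 9.41%. The levels are not on equal terms between classes, because the distance rule limits which companions are possible. A far peak lies more than 10 kb from CTCF, so an overlapping peak could not lie within 1 kb of it. Near peaks lie within 10 kb of CTCF and can have such companions. Only the change with score inside each class is therefore described.

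The distance from a far peak to the nearest CTCF peak had a median of 35.4 kb (interval 34.4 to 36.5 kb). It exceeded 50 kb in 1758 peaks (35.6%), 100 kb in 773 (15.7%) and 500 kb in 17. Just inside the limit lay chr7:65988927-65989219 at 10.005 kb, chr18:38951472-38951765 at 10.014 kb and chr1:137667412-137667872 at 10.027 kb, with scores of 102.48, 97.51 and 132.96. Just outside it lay chr1:138592568-138593322 at 9.987 kb, chr17:29450331-29450561 at 9.971 kb and chr5:125873356-125873741 at 9.965 kb, with scores of 269.54, 91.97 and 112.45. The most distant peak, chr18:41368568-41368957, lay 713 kb from CTCF with a score of 87.54. The next, chr3:21306009-21306513, lay 702 kb away with 248.6.

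Far peaks took up a large territory thinly. Of 2389 Mb between the first and last CTCF peaks of the 19 autosomes, 1803 Mb (75.5%) lay more than 10 kb from CTCF, and this stretch held 4928 far peaks, or 2.73 per Mb. The stretch within 10 kb held 6.38 near peaks per Mb, 2.33 times as many. The density fell with distance at each step. It was 10.97 per Mb within 1 kb of CTCF (interval 10.2 to 11.7), 4.605 from 5 to 10 kb, 4.00 from 10 to 20 kb (3.79 to 4.21), 2.74 from 50 to 100 kb, 2.01 from 100 to 200 kb and 0.754 beyond 200 kb (0.660 to 0.858). The limit of 10 kb thus lay on a gradual slope. Sequence to which reads cannot be mapped was not subtracted from these lengths.

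**Figure D2:**
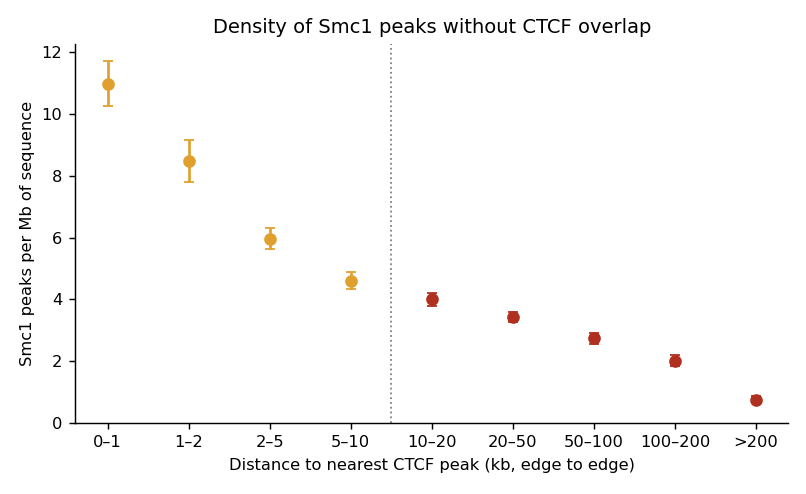
Smc1 peaks without CTCF overlap per Mb of sequence (vertical axis) by distance to the nearest CTCF peak in kb (horizontal axis). Bars are exact 95% Poisson intervals, the dotted line marks 10 kb, and red points are far peaks. The density falls from 10.97 per Mb within 1 kb to 0.754 per Mb beyond 200 kb.

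Peak strength did not follow this slope. The median score was 113 from 10 to 20 kb, 111 from 20 to 50 kb, 113 from 50 to 100 kb, 111 from 100 to 200 kb and 124 beyond 200 kb (interval 118 to 130). Median widths at these distances were 394, 390, 390, 374 and 373 bp. Over all 4935 far peaks, the rank correlation of distance was 0.03 with score and −0.05 with width, whereas width and score correlated at 0.54. These correlations are across peaks of 1 library, and peaks are not replicates.

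The density also differed with the length of the CTCF-free interval. In intervals of 100 to 200 kb there were 3.74 far peaks per Mb of sequence beyond 10 kb, in those of 200 to 500 kb 2.71, in those of 500 kb to 1 Mb 1.39 and in the 138 intervals over 1 Mb 0.444. Near peaks at the borders of these intervals numbered 7.32, 7.51, 4.12 and 2.17 per Mb. Without the intervals over 1 Mb, which made up 12.8% of the far sequence, the far density was 3.07 per Mb and the near density 6.40. Within intervals of 200 to 500 kb, peaks still thinned out from 15.5 per Mb up to 2 kb from CTCF to 5.51 from 2 to 10 kb and 3.22 from 10 to 20 kb. From there the density was flatter, with 3.05 from 20 to 50 kb, 2.62 from 50 to 100 kb and 2.49 beyond 100 kb (interval 2.26 to 2.74).

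Most CTCF-free intervals held no far peak. Of 21460 intervals longer than 20 kb, 3279 (15.3%) held at least 1, 940 held 2 or more, 86 held 5 or more and 6 held 10 or more. The share with a far peak differed with interval length, from 4.43% of the 10048 intervals of 20 to 50 kb, which have little far sequence, to 42.1% of those of 500 kb to 1 Mb, and was 34.1% of those over 1 Mb. The 86 intervals with 5 or more held 539 far peaks, 10.9% of the total. The longest intervals, 7720 kb at chr7:39052473-46772962 and 6207 kb at chr7:7252654-13459673, held 0 far and 0 near peaks. The longest run between neighbouring far peaks was 18.3 Mb at chr7:6776808-25071198, where 221 CTCF peaks and 152 other Smc1 peaks were listed. The 3592 CTCF peaks that were the nearest one to a far peak overlapped Smc1 in 69.3% of cases, against 68.0% of the 30664 CTCF peaks that border an interval over 20 kb. Their median CTCF scores were 220 and 253.

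Most far peaks (3842, or 77.9%) had no other far peak within a linking distance of 12500 bp, a usual distance for joining enhancers. Counting Smc1 peaks of any class, 1410 far peaks (28.6%) had a neighbour within that distance. Another far peak was found within that distance for 1093 of the 4935 far peaks, or 22.1% (interval 21.0% to 23.3%). The share was 26.9% among near peaks and 47.9% among overlapping peaks. Near peaks are confined to 586 Mb and overlapping peaks to CTCF sites, so these shares are not on equal terms. The median gap from a far peak to the next nearest far peak was 76.5 kb. At the other end, 139 far peaks (2.82%) had no other within 1 Mb.

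Around a far peak, other far peaks were denser than the mean of 2.73 per Mb at each distance examined, counting only sequence beyond 10 kb from CTCF. Within 1 kb there were 40.5 per Mb, 14.8 times the mean, from 198 pairs of peaks. From 1 to 2 kb there were 18.3 per Mb, from 2 to 5 kb 11.9, from 25 to 50 kb 6.80 and from 100 to 200 kb 5.21. From 200 to 500 kb the density was still 4.39 per Mb, 1.61 times the mean. The density was thus above this mean both at close range and over wider parts of chromosomes. The mean includes the intervals over 1 Mb and was 3.07 per Mb without them. Sequence to which reads cannot be mapped was not subtracted. At close range, 44 gaps between neighbouring far peaks were of up to 100 bases. Whether such peaks are separate sites was not tested.

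**Figure D3:**
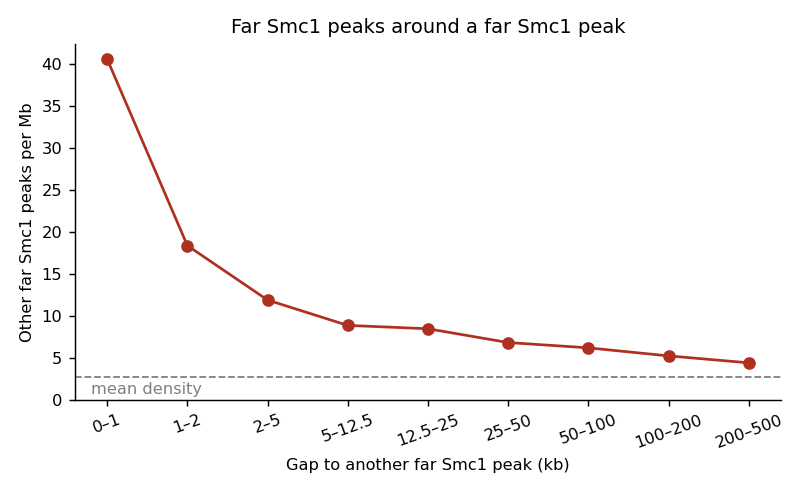
Other far Smc1 peaks per Mb (vertical axis) by their gap in kb from a far Smc1 peak (horizontal axis), within sequence more than 10 kb from CTCF. The dashed line is the mean of 2.73 per Mb. The points fall from 40.5 per Mb within 1 kb to 4.39 per Mb from 200 to 500 kb and stay above the line.

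Linking far peaks at gaps of up to 12500 bp gave 3842 single peaks, 390 pairs and 94 clusters of 3 or more. The clusters held 313 peaks (6.34%). They spanned 1.80 to 24.8 kb, with a median of 9.24 kb. When Smc1 peaks within 1 kb of each other were first joined into 1, there were 50 such clusters, and with Smc1 scores of 100 or more there were 47. Clusters of 3 or more were not particular to far peaks. Linked in the same way, near peaks gave 95 with 8.91% of near peaks, and overlapping peaks gave 1763 with 21.5%. These shares are again not on equal terms. Far peaks in clusters were stronger and wider than single ones. The median score was 130 in clusters (interval 121 to 141), 113 in pairs and 111 in single peaks (110 to 113). The median width was 448 bp in clusters (431 to 467), 419 bp in pairs and 377 bp in single peaks (372 to 381). These widths were not compared at like score, and width and score correlated at 0.54 over all far peaks. Scores over 200 were found in 22.7% of clustered and 10.4% of single peaks. The distance to CTCF was alike, with medians of 36.6 kb in clusters (interval 34.4 to 39.6 kb) and 34.9 kb in single peaks (33.8 to 36.3 kb).

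The cluster with most far peaks lay at chr13:5859847-5872090 and held 7 peaks in 12.2 kb, of which 43.3% was covered by peaks. Their scores from low to high position were 435.57, 366.28, 147.33, 143.06, 80.9, 1289.3 and 156.64, and their widths were 691, 1249, 439, 378, 277, 1760 and 508 bp. The strong and broad peaks thus stood towards both ends, with weak and narrow ones between. The last peak, with a score of 156.64 and a width of 508 bp, was an exception and lay outside them. Joining peaks within 1 kb left 3 stretches here. Within 100 kb of the cluster centre there were 12 far peaks and 1 CTCF peak.

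The second cluster, chr13:111697840-111720272, held 6 peaks in 22.4 kb. Its scores were 399.24, 112.59, 189.56, 106.43, 141.14 and 227.32, highest at both ends. Its peaks were 329 to 490 bp wide, and after joining at 1 kb 5 remained. Of the 3 CTCF peaks within 100 kb of its centre, the nearest lay 38.1 kb from the cluster.

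Each of 3 clusters had 5 peaks. At chr4:106581595-106591302, spanning 9.71 kb, the scores were 87.73, 262.04, 286.42, 129.81 and 221.83, with widths of 438 to 593 bp. At chr1:188391842-188413896, spanning 22.1 kb, the scores were 198.43, 120.52, 140.3, 314.88 and 85.05, and all 5 peaks were more than 1 kb apart. None of the 3 CTCF peaks within 100 kb of that cluster overlapped a Smc1 peak. At chr2:27689844-27714613, spanning 24.8 kb, the scores were 141.14, 331.9, 124.87, 103.26 and 202.26. That cluster lay between 11 CTCF peaks within 100 kb of its centre, the nearest 18.7 kb away.

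Of the 18 clusters with 4 peaks, the most compact was chr10:118304680-118307681. Its peaks scored 151.34, 198.9, 248.76 and 120.93 and covered 80.1% of 3.00 kb, so that joining at 1 kb left 1 stretch. It was also the most isolated of the 10 named clusters, at 86.1 kb from CTCF. The others named, at chr13:42144833-42148547, chr1:169213816-169220527, chr8:26625514-26632416 and chr10:98724083-98732473, spanned 3.71 to 8.39 kb, and each was 2 stretches after joining. The clusters were spread over 18 of the 19 autosomes, with the exception of chr19, and chr8 held most of them with 11.

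**Figure D4:**
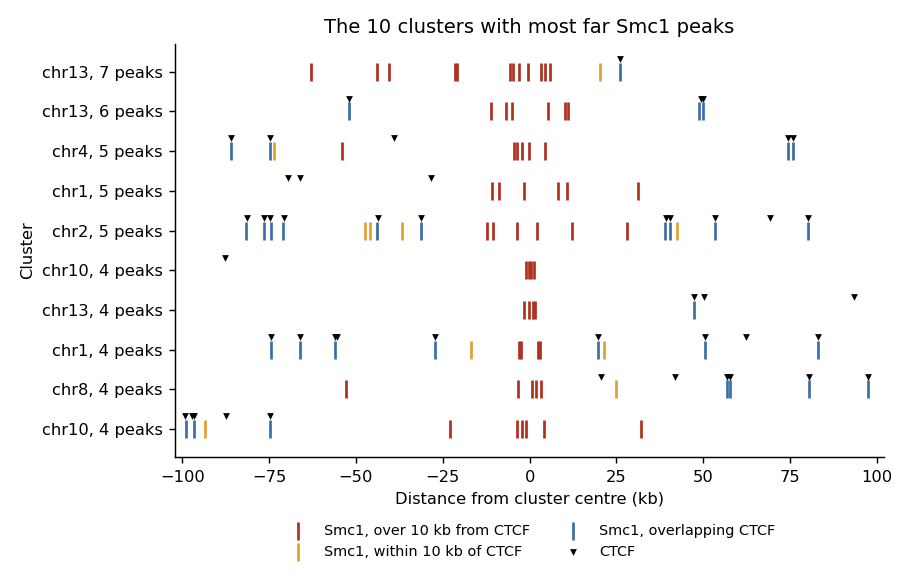
Peaks around the centres of the 10 clusters with most far Smc1 peaks, with distance from the cluster centre in kb (horizontal axis) and 1 row for each cluster. Red ticks are far, yellow near and blue overlapping Smc1 peaks, and black triangles are CTCF peaks. The top row, on chr13, has 12 far peaks and 1 CTCF peak within 100 kb, while the chr2 cluster lies among 11 CTCF peaks.

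On the scale of 1 Mb, far peaks averaged 1.99 per window, with a median of 1, and 765 of 2482 adjoining windows (30.8%) held none. There were 29 windows with 10 or more, which held 339 far peaks (6.87%). Overlapping windows at steps of 500 kb were then ranked. The window with most far peaks was chr8:10500001-11500000, with 20 far, 6 near and 18 overlapping Smc1 peaks and 22 CTCF peaks. Its far peaks had a median score of 174 and a median width of 581 bp, both above the 112 and 388 bp of all far peaks. The medians of all far peaks on chr8 were 119 and 461 bp. Second was chr13:5500001-6500000 with 19 far, 2 near and 3 overlapping Smc1 peaks, where CTCF was sparse at 4 peaks. After it came chr3:51500001-52500000 with 16 far peaks, which included the widest far peak.

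There were 15 far peaks in each of chr2:117000001-118000000, chr8:130000001-131000000 and chr14:76500001-77500000. Their median scores were 96.2, 171 and 113, so that a high number of far peaks did not always go with strong ones. Windows with 14 were chr1:71500001-72500000, chr7:119000001-120000000 and chr8:127000001-128000000. The last had 35 CTCF peaks, and its 14 far peaks lay in 446 kb of far sequence, a density of 31.4 per Mb that was the highest of the windows named. Windows with 13 were chr2:50000001-51000000, chr10:16500001-17500000, chr12:80500001-81500000 and chr13:111000001-112000000.

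Far peaks were also counted in each CTCF-free interval. The interval with most far peaks was chr13:4776403-5891939, 1116 kb long, with 16 far peaks and 1 near peak. Next was chr8:10828045-11006844, where 12 far peaks lay in 179 kb, or 75.6 per Mb of far sequence. The median score of these 12 peaks was 176, and the highest, 360.16 at chr8:10961940-10962546, lay 44.3 kb from CTCF. Their widths ran from 346 to 1244 bp, and 11 of the 12 lay in clusters of 3 or 4. Intervals at chr10:16357208-17278506 and chr10:36857212-37988930 held 11 far peaks each, and chr1:62014103-62626724 held 10. None of these last 3 had a near peak at its borders.

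Chromosomes 1, 2 and 8 held the most far peaks, with 402, 406 and 392. Relative to the sequence beyond 10 kb from CTCF, chr8 stood apart at 4.25 far peaks per Mb (exact Poisson interval 3.84 to 4.69), against 2.04 on chr7 to 3.13 on chr9 for the other autosomes. Far peaks on chr8 were also the widest, with a median of 461 bp against 352 to 405 bp elsewhere, and 30.4% of them had another far peak within 12500 bp, against 12.4% to 28.6%. At scores from 100 to 200 the median width was 458 bp on chr8 and 402 bp on the other autosomes, and at 200 to 400 it was 668 and 542.5 bp.

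This was not a property of far peaks alone. Near peaks were densest on chr8 too, at 8.74 per Mb against 4.84 to 7.34. Overlapping Smc1 peaks had their highest median width there (449 bp against 402 to 429 bp), and so did the peaks of the CTCF library (491 bp against 424 to 464 bp). Median scores were also highest on chr8 for far peaks (119 against 107 to 117) and overlapping peaks (350 against 290 to 348). For near peaks and for CTCF peaks, 2 chromosomes had a higher median score than chr8. The number of CTCF peaks per Mb was not exceptional, with 5 chromosomes above chr8. Read depth and copy number per chromosome were not analysed here, and their part in these values was not tested. Without chr8 the median width of far peaks was 382 bp, and 83 clusters of 3 or more remained on the other autosomes. As a share of all Smc1 peaks, far peaks ran from 8.65% on chr11, which had the most CTCF peaks per Mb, to 17.2% on chr13.

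**Figure D5:**
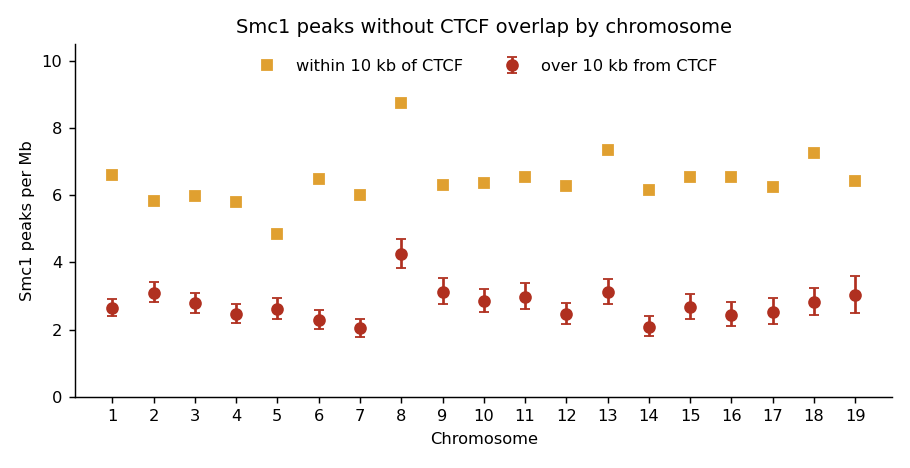
Smc1 peaks per Mb (vertical axis) on each autosome (horizontal axis), for far peaks over sequence more than 10 kb from CTCF (red, with exact 95% Poisson intervals) and near peaks over sequence within 10 kb (yellow). Chr8 has the highest value in both, 4.25 and 8.74 per Mb.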

How the data were processed

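Smc1 and CTCF peaks of neural progenitor cells were taken from 2 deposited lists on mm9, 1 for each library. Per the submitters' processing notes Bowtie was used. MACS is named in the deposited peak names. The score is the authors' own value for each peak. Its lowest value in both lists, 80, corresponds to the p-value of 1e-08 that the deposited file names give if the score is the log10 p-value multiplied by −10. The sources used here do not say how input DNA was handled in peak calling, and the read depth of either library is unknown.

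Positions are printed with the first base counted as 1. Gaps run from edge to edge. Densities are peaks over the sequence between the first and last CTCF peak of each autosome. Calculations used Python 3.11.15, pandas 2.3.3, NumPy 2.4.6 and SciPy 1.17.1, and gap and cluster routines were checked on simulated peaks. The 95% intervals of medians are binomial. Named places were the 10 windows (the tie at 13 kept whole) and 10 clusters with most far peaks (ties by shorter span), the 5 richest intervals, and the strongest, widest and most distant peaks. The members, the distance limit and the kinds of place listed were chosen with earlier results of these data known. Gene annotation and genome sequence of mm9 were not used here, so places carry no gene names and no sequence is shown. Alternatives were other distance limits, centre distances, scores of 100 or more, joined peaks, other link gaps and window sizes.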

Additional observations from a re-analysis of the deposited data

Results flagged for a closer look

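Chromosome X lay outside the rule for the peaks described above, and Smc1 peaks far from CTCF were present there. Of its 878 Smc1 peaks, 105 lay more than 10 kb from CTCF, a share of 12.0% (95% Wilson interval 9.98% to 14.3%) against 13.3% on the autosomes. Their median score was 112, equal to the autosomal value at this precision, while their median width was 304 bp, below that of each autosome (352 to 461 bp). The median distance to CTCF was 57.0 kb. The cells are of a male line, and the part of chromosome X copy number in these values was not tested. Widths of near and overlapping peaks on chromosome X were not compared here.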

How the results depend on the processing

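No paired analysis was possible because each antibody had 1 library, and for the same reason no replicate could be left out. Of 64 recomputed values, 34 stayed within the counting interval of the reported value, or within 1.5 times a reported count, and 30 did not. Some of these changes had a direction fixed by the setting itself. Examples are the median distance under another distance limit, the median score with a score minimum and the neighbour share under another link gap. With limits of 5, 20 and 50 kb, far peaks made up 16.4%, 9.60% and 4.74% of Smc1 peaks, at median distances of 26.5, 49.4 and 91.2 kb. At 50 kb there were 1758 far peaks with a median width of 382.5 bp, 20.4% of them with a neighbour within 12500 bp, and 31 clusters. With Smc1 scores of 100 or more there were 3211 far peaks (9.98%) with a median width of 424 bp, a median score of 134.5, 16.6% with a neighbour and 47 clusters. With CTCF scores of 100 or more the share was 15.8%, the median score 115 and the median distance 38.0 kb. Joining Smc1 peaks within 1 kb left 16.2% with a neighbour and 50 clusters. Link gaps of 5, 25 and 50 kb gave 15.0%, 30.5% and 41.6% with a neighbour and 50, 151 and 251 clusters. The 1% of windows with most far peaks held 6.06% of them at 1 Mb, 8.23% at 500 kb and 4.66% at 2 Mb. Without chromosome 8, chosen after seeing the data, the median width was 382 bp. Shares near genes and sequence motifs were not run, since no annotation or genome of mm9 was used here. Binding below the lowest listed score of 80 is in neither list, so CTCF signal of that strength near a far peak was not measured.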
